A study of Mus musculus with 24 samples.

Results

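The 2 sorted fractions of wild type bone marrow stromal cultures were compared across all genes, 6 mesenchymal libraries against 6 hematopoietic ones, which make up 12 of the 24 RNA-seq libraries of the series. They were taken by their titles, which name the genotype and the population. Female C57BL/6 mice, 6 to 8 weeks old, gave the marrow, and cultures were kept for 7 days in MEM-alpha medium with serum and antibiotics and no other agent named. The sort used CD45, a protein of white blood cell surfaces whose gene is Ptprc, and Sca1, whose gene is Ly6a. The hematopoietic fraction was CD45+Sca1+ and the mesenchymal fraction CD45-Sca1+, so neither fraction holds the Sca1-negative cells of the culture. The other 12 libraries are the same 2 fractions from mice that carry the Sh3bp2KI/KI genotype, and they were used in 1 test only. No label tells if the 6 replicates of a group are different mice, dishes or repeat preparations, so the p-values here rest on a spread that may be technical. In bulk samples such as these, fewer cells of a type and less RNA per cell cannot be told apart.

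A marrow stromal culture holds adherent macrophages and their precursors beside fibroblast-like stromal cells. Macrophages arise from blood progenitors under the transcription factor PU.1, engulf debris through scavenger and Fc receptors, and depend on the growth factor CSF1. Stromal cells lay down collagenous matrix, can become bone, fat or cartilage cells, and in marrow make the factors that keep blood progenitors, above all CXCL12 and stem cell factor. Osteoclasts, the cells that resorb bone, form from macrophage precursors when stromal cells show them CSF1 and RANKL.

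Total counts ran from 9875390 to 15047636 in the hematopoietic libraries and from 12655362 to 15580307 in the mesenchymal ones. Levels are given as CPM, the count scaled to the library's total and its TMM factor. The log2 fold change is mesenchymal over hematopoietic, so a negative value is a gene higher in hematopoietic cells. Of 14294 genes tested with edgeR's quasi-likelihood test, with the prefix of the deposited file name (C1 or C2, 3 libraries of each population with either) as a term, 5142 (36%) were higher and 5306 (37.1%) lower in mesenchymal cells at an adjusted p under 0.05, together 73.1%. With so many genes called, a call against a 2-fold minimum (edgeR's glmTreat) says more, and 2349 genes (16.4%) were higher and 2226 (15.6%) lower past 2-fold, together 32%. Counts for gene lists below are to be read against those shares. In 53.1% of genes the ranges of the 6 and 6 libraries did not overlap. Library profiles correlated at 0.957 to 0.989 within a population and at 0.664 to 0.758 between populations, and the first principal component, which separated them, held 87.0% of the variance.

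The sort label held for CD45. Ptprc ranged from 677 to 860.1 CPM (median 797) in hematopoietic libraries and from 0.864 to 4.89 CPM (median 3.23) in mesenchymal ones, for a log2 fold change of -8.04 with an SE of 0.39 (adjusted p = 1.05e-09). The ranges lay far apart, and every mesenchymal library still had some counts. Ly6a ranged from 2.64 to 32.2 CPM (median 10.5) and from 7.59 to 13.3 CPM (median 9.64), the ranges overlapped, and its log2 fold change of -0.17 was not called (adjusted p = 0.759). The transcript of the surface protein that both gates required was low in both fractions, and hematopoietic libraries 1 and 6 held the least of it, 2.64 and 2.64 CPM. Ly6a has close relatives in its gene cluster, and reads shared with them may have been dropped or split in counting.

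Of 16 pan-leukocyte genes, 15 were lower in mesenchymal cells, all of them past 2-fold, with a median log2 fold change of -7.82 beside -0.01 over all tested genes. The exception was Lsp1, an actin-binding protein known from white blood cells, at 14.9 to 43.4 (median 38) CPM in hematopoietic and 35.4 to 50.3 (median 38.8) in mesenchymal libraries. All 23 tested macrophage and monocyte genes of 24 listed were lower, with a median of -7.89. The exception to testing was Itgam, which encodes CD11b and is listed at 0 in all 12 libraries, a value taken up again below. Of 23 stromal genes, 20 were higher in mesenchymal cells (19 past 2-fold, median 3.45). The adhesion molecule Vcam1 was lower, at -0.78. The mesenchymal surface markers Eng (CD105) and Nt5e (CD73) were not called, and Eng was at 23.7 CPM in hematopoietic and 23.1 in mesenchymal cells, with a 95% interval of the log2 fold change of -0.20 to 0.11.

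Markers of other cells that the gates could have let through were mostly low. Neutrophil granule genes were present in hematopoietic libraries, with 8 of 9 tested genes called lower in mesenchymal cells. The neutrophil peroxidase Mpo ranged from 5.21 to 32.9 CPM (median 12.9) there, while Ly6g, the surface marker of mature neutrophils, averaged 0.0494 CPM. The B cell factor Pax5 ranged from 0.789 to 29.2 CPM (median 5.40) in hematopoietic libraries, highest in libraries 1 and 6. Of 12 T and NK cell genes, the 2 tested were Cd4 and Il7r, which macrophages can also express, and Cd3e averaged 0.0738 CPM. No gene of the erythroid list or of the mast cell and basophil list reached the level needed for testing. Of these, 3 of 9 and 2 of 8 had no count in any library, and no absence is read from such zeros, as explained at the end of the Results. Of 11 tested endothelial genes, 7 were higher in mesenchymal cells, at low levels, 1 was lower past 2-fold (-1.77) and 3 were not called. With C2 libraries alone, 1 was higher. Levels summed over the 12 listed overlapped, at 21.5 to 37.8 CPM in hematopoietic and 13.8 to 96.1 CPM in mesenchymal libraries. Cdh5, the cadherin of endothelial junctions, ranged from 1.79 to 25.4 CPM (median 12.3) in mesenchymal and from 1.65 to 7.24 CPM (median 3.45) in hematopoietic libraries, and Pecam1 (CD31) was not called (-0.00, 95% interval -0.83 to 0.83).

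RNA of the other population was read from these markers, as the median over markers of a library's level relative to the population they mark. In mesenchymal libraries 16 leukocyte markers gave 0.437% ± 0.146 (SD, n = 6). In hematopoietic libraries 22 stromal markers gave 10.7% ± 4.71, with 9.08%, 12.9%, 19.1%, 10.1%, 7.04% and 6.25% in libraries 1 to 6. Library 3 was the highest for 18 of the 22 markers and library 6 the lowest for 13. The C1 libraries averaged 13.7% and the C2 libraries 7.79% (two-sided exact permutation test, n = 3 and 3, p = 0.2, where 0.1 is the smallest p possible). The estimate takes the markers to be silent in the other population, and the mean over markers in place of the median gave 24.9% for the stromal and 7.94% for the leukocyte markers. The levels of mesenchymal genes in hematopoietic libraries moved with it: of 1528 genes higher in mesenchymal cells past 2-fold at 10 CPM or more, 1038 had their highest hematopoietic level in library 3 and 570 their lowest in library 6. Their median hematopoietic level was 14.1% of the mesenchymal one, and 547 lay above 19.1%, the highest share estimated for any library.

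The sizes of the differences were lopsided. Among called genes, 104 had a log2 fold change of 4 or more, 6 of 5 or more and 0 of 6 or more. On the other side, 790 were at -4 or below, 616 at -5 or below, 458 at -6 or below and 122 at -8 or below. The median size of called differences was close on both sides, at 1.22 for genes higher and -1.06 for genes lower in mesenchymal cells. The part of the stromal RNA share in the shorter mesenchymal tail was not tested.

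**Figure D1:**
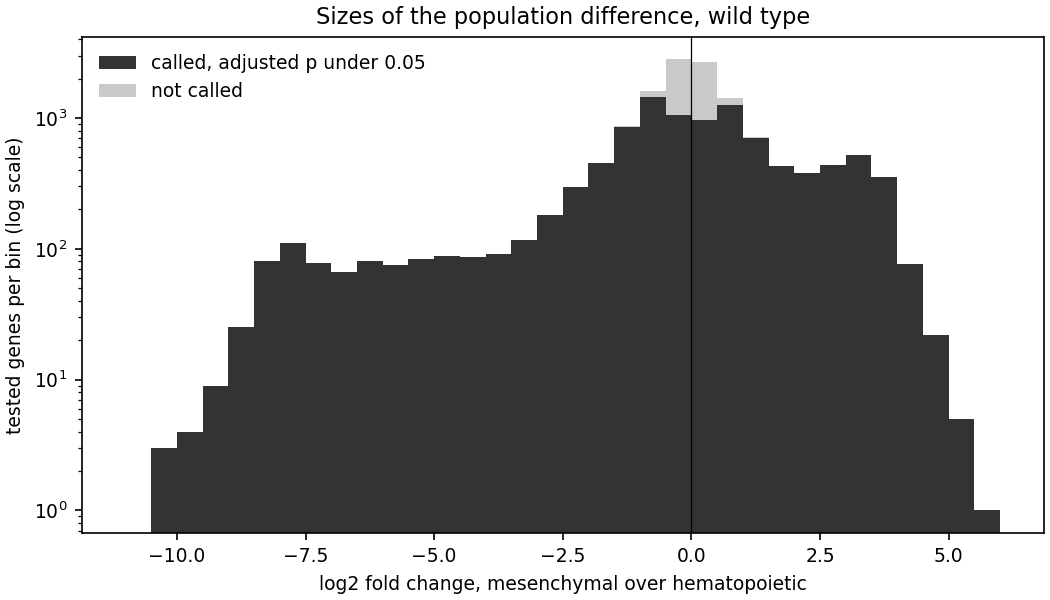
Number of tested genes by log2 fold change (mesenchymal over hematopoietic, bins of 0.5, log-scaled count axis), with genes called at an adjusted p under 0.05 dark and the rest light. The left tail runs past -8, while 6 called genes lie at 5 or above and none at 6 or above.

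The 12 largest rises past 2-fold, predicted genes left out, at 10 CPM or more in mesenchymal cells were led by Ptgfr, the receptor for prostaglandin F2 alpha. It ranged from 0 to 1.42 CPM (median 0.576) in hematopoietic and from 12.3 to 48.7 CPM (median 25.1) in mesenchymal libraries, a log2 fold change of 5.50 (SE 0.52). The ranges did not overlap. Next came the kininogens Kng1 and Kng2 (4.98 and 4.66), precursors of bradykinin whose near-identical sequences make the split between them uncertain, and Trp63, a p53 relative known from epithelial stem cells, at 11.3 CPM (4.88). Sfrp2, a secreted Wnt modulator, Fbn2, a fibrillin of elastic fibres, Abi3bp, a matrix protein, Avpr1a, the vasopressin receptor, and Col2a1, the cartilage collagen, were also among the 12, between 4.44 and 4.64. Among the 12 largest falls, Lilra6, a leukocyte immunoglobulin-like receptor, averaged 12.3 CPM in hematopoietic cells and was at 0 in all 6 mesenchymal libraries, at least 342-fold lower against a floor of 3 counts over the group. Cysltr1, the leukotriene receptor, ranged from 60.6 to 91.7 CPM (median 74.7) in hematopoietic and from 0.0684 to 0.372 CPM (median 0.0779) in mesenchymal libraries, and the scavenger receptor Marco from 8.36 to 68.8 CPM (median 19.8) and from 0 to 0.192 CPM (median 0).

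The 10 most abundant nuclear protein-coding messages per kilobase of exon showed what each fraction made most of. In mesenchymal cells these were the matrix genes Col1a1 (2419 CPM per kilobase), Thbs1 (2112), Sparc (1005) and Fn1 (926), the actins Actb and Acta2, the phosphoprotein Spp1, the collagen chaperone Serpinh1, Vim and the ribosomal gene Rplp1. In hematopoietic cells Lyz2, the macrophage lysozyme, led at 7319 CPM per kilobase, against 26 in mesenchymal cells. It was followed by Actb, Tmsb4x, the lysosomal protease genes Ctss and Ctsb, the ferritin light chain Ftl1, B2m, Psap, Eef1a1 and Rplp1. Actb, Rplp1 and no other gene stood in both lists.

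**Figure D2:**
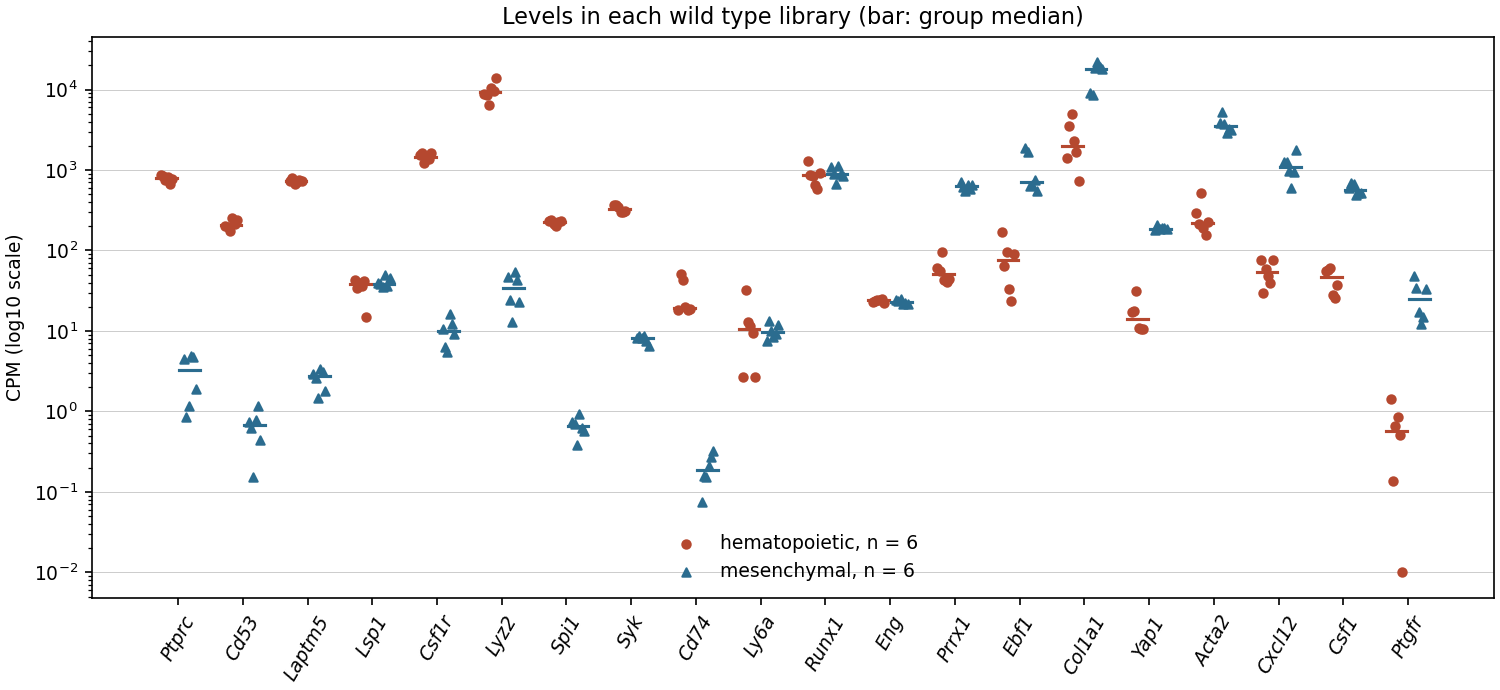
CPM (log10 axis, values under 0.01 drawn at 0.01) of 20 genes in each of the 6 hematopoietic (circles) and 6 mesenchymal (triangles) libraries, with a bar at each group's median. Leukocyte and macrophage genes separate to one side and stromal genes to the other, while Ly6a, Runx1, Eng and Lsp1 overlap.

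Transcription factors of mesenchyme stood higher in mesenchymal cells for 17 of 19 tested, all past 2-fold. Prrx1, a homeobox factor of limb and skeletal mesenchyme, ranged from 40.7 to 95.5 CPM (median 50.4) in hematopoietic and from 541 to 705 CPM (median 626) in mesenchymal libraries (3.50, SE 0.18, adjusted p = 1.4e-09). Snai2, Foxc1, Prrx2 and Nr2f2 stood between 3.30 and 3.88. The early B cell factors, named for the lymphoid lineage and also known from marrow stroma, were stromal here. Ebf1 ranged from 23.9 to 168 CPM (median 77.1) and from 549 to 1882 CPM (median 701) (3.70), with Ebf2 at 4.32 and Ebf3 at 4.02. Mesenchymal libraries 1 and 2 held more Ebf1 (1882 and 1658 CPM) than the other 4. The exceptions were Zeb2 and Tcf4, which both populations expressed and which were higher in hematopoietic cells, at -1.74 and -0.40.

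Blood transcription factors went the other way in 18 of 20 tested. Spi1, which encodes PU.1, ranged from 203 to 241 CPM (median 229) in hematopoietic and from 0.386 to 0.922 CPM (median 0.661) in mesenchymal libraries (-8.39, SE 0.14, adjusted p = 2.34e-13). Ikzf1, the Ikaros factor of lymphoid and myeloid cells, was at -8.34, and Tfec and Irf5, both active in macrophages, at -6.92 and -4.65. The RUNX family broke the pattern. Runx1, the factor needed to form blood stem cells, ranged from 579 to 1312 CPM (median 859) in hematopoietic and from 671 to 1112 CPM (median 894) in mesenchymal libraries. The ranges overlapped and the 95% interval of the log2 fold change was -0.30 to 0.51. Runx3 was higher in mesenchymal cells (40.2 against 179.6 CPM, 2.25), as was the osteoblast factor Runx2 (132 against 763 CPM, 2.64).

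PU.1 binds a purine-rich core, and the letters GAGGAAGT were searched on both strands of the 300 bases around gene starts that RefSeq gives for build GRCm38.p6, 250 before and 50 after. They were in 3.20% of all 32851 such windows, in 6.17% of 2156 windows of genes higher in hematopoietic cells past 2-fold, and in 2.08% of 2256 windows of genes higher in mesenchymal cells. Among 37 windows of the leukocyte and macrophage lists, 4 held it. A match is a description of letters and not a bound site. Those of Cd53, a leukocyte tetraspanin, and Vav1, a guanine exchange factor that signals below immune receptors, are shown because both are leukocyte genes with large differences (-8.34 and -8.04). The match is in capitals, and the windows are chr3:106790100-106790399 on the minus strand and chr17:57278850-57279149 on the plus strand.
Cd53: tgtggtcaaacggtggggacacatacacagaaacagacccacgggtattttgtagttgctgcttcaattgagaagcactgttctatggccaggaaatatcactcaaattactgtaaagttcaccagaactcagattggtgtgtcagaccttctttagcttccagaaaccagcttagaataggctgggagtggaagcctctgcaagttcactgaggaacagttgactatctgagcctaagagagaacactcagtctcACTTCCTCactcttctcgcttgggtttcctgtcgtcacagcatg
Vav1: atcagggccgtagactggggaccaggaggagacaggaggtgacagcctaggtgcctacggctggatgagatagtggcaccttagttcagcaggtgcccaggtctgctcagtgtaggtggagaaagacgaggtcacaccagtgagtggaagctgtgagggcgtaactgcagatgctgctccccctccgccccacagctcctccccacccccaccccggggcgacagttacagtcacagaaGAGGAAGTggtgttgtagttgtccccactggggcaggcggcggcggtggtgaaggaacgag

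Matrix genes were mesenchymal. Of 30 collagens and collagen-processing enzymes, 28 were higher in mesenchymal cells and 27 of them past 2-fold, with a median of 3.14. Col1a1, the main bone and skin collagen, ranged from 728 to 4979 CPM (median 1985) in hematopoietic and from 8463 to 21849 CPM (median 18272) in mesenchymal libraries (2.76). Its lowest mesenchymal values were those of libraries 1 and 2, 9102 and 8463 CPM. The crosslinking enzyme Lox, the basement membrane chain Col4a2 and the fibril-associated Col12a1 stood at 3.53, 4.03 and 3.42. The exceptions were Col14a1 (11.6 against 2.19 CPM, -2.39) and the lysyl hydroxylase Plod1 (-0.86), both higher in hematopoietic cells. All 19 tested matrix glycoproteins and proteoglycans were higher in mesenchymal cells, among them the elastic fibre proteins Fbln5 (3.67) and Efemp2 (3.05), the proteoglycan Bgn (3.64) and the basement membrane protein Nid1 (3.63). Elastin itself, Eln, was too low to test, at 0.717 CPM in mesenchymal cells.

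Of 17 tested matrix proteases and inhibitors 13 were higher in mesenchymal cells and 3 lower. The ADAMTS proteases Adamts5, Adamts2, Adamts1 and Adamts12 and the inhibitor Timp3 were higher in mesenchymal cells, by 2.88 to 3.89. Matrix metalloproteinases fell on both sides. Mmp2, Mmp11, Mmp13, Mmp14 and Mmp23 were higher in mesenchymal cells. Mmp9 and Mmp12, gelatinase and elastase of macrophages and osteoclasts, were higher in hematopoietic cells (-7.58 and -6.12), as was Mmp8, the neutrophil collagenase, at 25.6 against 0.0236 CPM. Mmp19 was not called (21.5 and 22.2 CPM).

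Genes of cell tension were uniformly mesenchymal. TEAD factors with their coactivators YAP and TAZ switch on genes in spread, stretched cells, and all 13 tested genes of that list were higher in mesenchymal cells, 12 past 2-fold, with a median of 3.51. Yap1 ranged from 10.5 to 31 CPM (median 14) in hematopoietic and from 179.7 to 209 CPM (median 187) in mesenchymal libraries, and Tead1 from 23.7 to 89.8 CPM (median 48.2) and from 462 to 799 CPM (median 574). The targets Ccn1, Ccn2 and Ankrd1 stood at 3.82, 3.64 and 3.42. Contractile and pericyte genes followed, with 10 of 11 tested higher: smooth muscle actin Acta2 ranged from 156 to 512 CPM (median 219) and from 2893 to 5254 CPM (median 3483) (3.84), and Tagln and Myl9 were at 3.66 and 3.84. Cspg4 (NG2), a marker of pericytes, was not called and its ranges overlapped, 4.98 to 49.9 (median 29.3) against 11.2 to 61.6 (median 33.7) CPM. Caveola and junction genes were higher for 13 of 14, with Cavin1 at 3.78, and the exception was Cav2 at -1.16.

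The TEAD core, searched as CATTCC on both strands of the same windows, was in 14.7% of all windows, 12.2% of the windows of tested genes and 15.4% of those of genes higher in mesenchymal cells past 2-fold. It was in 10 of the 15 windows found for the TEAD and YAP list, which holds the factors, their coactivators and pathway regulators as well as targets. The windows of Wwtr1 overlap and share 1 match. Both windows below are of textbook targets: Ccn1, chr3:145649936-145650235, with 1 match, and Ankrd1, chr19:36119795-36120094, with 2, both on the minus strand, matches in capitals.
Ccn1: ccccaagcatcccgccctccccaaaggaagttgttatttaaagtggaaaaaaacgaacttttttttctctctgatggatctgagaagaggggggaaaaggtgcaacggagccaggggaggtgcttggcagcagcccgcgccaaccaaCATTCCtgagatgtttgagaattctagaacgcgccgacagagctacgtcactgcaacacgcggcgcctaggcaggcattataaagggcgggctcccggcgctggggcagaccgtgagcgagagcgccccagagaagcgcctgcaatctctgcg
Ankrd1: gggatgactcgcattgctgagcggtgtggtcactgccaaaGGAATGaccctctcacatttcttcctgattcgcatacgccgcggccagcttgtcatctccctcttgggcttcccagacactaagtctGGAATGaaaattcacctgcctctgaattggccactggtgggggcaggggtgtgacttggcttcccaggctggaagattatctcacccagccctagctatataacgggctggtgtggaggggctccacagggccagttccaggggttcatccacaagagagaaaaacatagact

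The blood niche factors listed were higher in mesenchymal cells in 15 of 15 (14 past 2-fold, median 3.33). The list was chosen with earlier results of these data known, so that count is a description. It does not hold Vcam1, which was lower in mesenchymal cells (-0.78). Cxcl12, the chemokine that holds blood stem cells in marrow, ranged from 29.7 to 76.8 CPM (median 53.5) in hematopoietic and from 605 to 1795 CPM (median 1101) in mesenchymal libraries (4.37, SE 0.32, adjusted p = 4.84e-08). Kitl, stem cell factor, was at 23.3 and 148 CPM (2.62), Angpt1 at 3.94 and Il7, the lymphoid growth factor, at 1.27 and 9.76 CPM. Lepr, the leptin receptor that marks niche stroma in the adult, averaged 68.6 CPM (2.69).

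Lineage genes of bone, cartilage and fat were uneven in the mesenchymal fraction. Of 13 tested osteoblast genes 10 were higher there, among them Runx2 as above, Sp7 at 2.92, Alpl at 3.16 and Ogn at 3.79. So was the phosphoprotein Spp1, at 635 CPM in hematopoietic and 2109 in mesenchymal cells (1.75). Of the other tested genes, 2 were not called and 1 was lower. The bone sialoprotein Ibsp ranged from 74.2 to 1289.8 CPM (median 687) in mesenchymal libraries and from 3.09 to 359.6 CPM (median 196) in hematopoietic ones (adjusted p = 0.0537), the osteocyte gene Dmp1 averaged 3.34 CPM in mesenchymal cells and was not called, and osteocalcin (Bglap) averaged 0.0124 CPM. Mef2c was higher in hematopoietic cells (-1.93). Of 10 tested cartilage genes 8 were higher in mesenchymal cells, at unequal levels. Col2a1 ranged from 0.981 to 21 CPM (median 12.1) and from 165 to 626 CPM (median 278) (4.64) and Col11a1 averaged 797 CPM, while aggrecan (Acan) averaged 5.40 CPM and was not called. Sox9, the cartilage master factor, averaged 19.3 CPM. Adipocyte genes split, 6 of 10 tested higher and 4 lower. The lipid droplet protein Plin4 (4.27), the adipokine Adipoq (0.122 against 5.43 CPM) and the desaturase Scd1 (2.37) were higher in mesenchymal cells. Cd36, Lpl, Pnpla2 and Cebpa, which macrophages also use, were higher in hematopoietic cells, with Cd36 at -8.19.

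Genes that record position along the limb were mesenchymal. Of 21 listed, 9 were tested and 8 were higher in mesenchymal cells past 2-fold, while Hoxb4 was lower (-1.07). Pitx1, a hindlimb factor, was at 0.790 and 13.1 CPM (4.06), Hoxa10 at 2.02 and 23.2 (3.55) and Hoxa11 at 0.398 and 7.47 (4.23). The forelimb and hindlimb factors Tbx5 and Tbx4 were too low to test, at 0.540 and 0.747 CPM in mesenchymal cells. Several genes used as marks of blood stem and progenitor cells were on the mesenchymal side as well: Hoxa9 at 3.21, Meis1 at 1.48, Mecom at 2.23 and Kit at 2.04. Kit averaged 1.92 CPM in hematopoietic and 8.64 in mesenchymal cells, so the transcript of the stem cell factor receptor was higher in the population with more of the ligand's transcript. Cd34 went the other way (-1.84, adjusted p = 0.0229), a call that was lost without mesenchymal library 4, 5 or 6 (adjusted p = 0.0627, 0.0538 and 0.0567). Imprinted growth genes were higher for 10 of 11 tested, with Plagl1 at 3.85, H19 at 4.08 and Grb10 at 3.41.

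Morphogen pathways were mostly mesenchymal, in ligands, antagonists and several receptors. Wnt pathway genes were higher for 24 of 28 tested. Rspo2, which strengthens Wnt signals, ranged from 35.6 to 165 CPM (median 68.8) and from 749 to 2493 CPM (median 839) (3.90), with libraries 1 and 2 the highest at 2493 and 1976 CPM. The antagonists Sfrp1, Sfrp2 and Dkk3 stood at 4.25, 4.57 and 3.42. The shared coreceptors Lrp5 and Lrp6 were higher in hematopoietic cells by less, -0.78 and -0.58. In the BMP and TGF-beta list 23 of 28 were higher, among them the receptors Bmpr1a (3.37) and Tgfbr3 (3.90) and the ligand Tgfb3 (3.76). Tgfb1 and its 2 signalling receptors Tgfbr1 and Tgfbr2 were higher in hematopoietic cells (-1.63, -2.37 and -0.80), and so was the target Id2 (-3.15). Hedgehog genes Smo, Gli2, Gli3 and Ptch1 were mesenchymal, from 2.65 to 3.73.

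Phagocyte genes filled the hematopoietic side. All 24 tested Fc receptor and ITAM-coupled genes were lower in mesenchymal cells past 2-fold, with a median of -7.53. ITAM is the cytoplasmic motif by which such receptors recruit the kinase SYK. Syk ranged from 297 to 369 CPM (median 329) in hematopoietic and from 6.58 to 8.65 CPM (median 8.18) in mesenchymal libraries (-5.38), the activating Fc receptor Fcgr3 was at -8.30, the inhibitory receptor Sirpa at -5.65, and Sh3bp2, the adaptor gene altered in the series' knock-in mice, at -4.81. Scavenger receptors were alike: Mrc1 averaged 2284 against 10.4 CPM and Msr1 839 against 2.54. The growth factor receptor Csf1r ranged from 1212 to 1642 CPM (median 1465) and from 5.40 to 16 CPM (median 9.96) (-7.23). All 7 phagocyte oxidase genes were lower in mesenchymal cells, with the catalytic subunit Cybb at -7.98 and the shared GTPase Rac1 at -0.48.

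Toll-like receptors and their adaptors were hematopoietic in 20 of 22 tested, in unequal degree. The endosomal receptors Tlr13 (-8.20), Tlr7 (312 against 0.701 CPM) and Tlr8 (192 against 0.694) were far lower in mesenchymal libraries, while the surface receptor Tlr4 was shared (149 against 30.4 CPM, -2.29). Tlr5 and the adaptor Ticam1 were not called (-0.52 and -0.19). Antigen presentation by MHC class II was low: all 8 genes were lower in mesenchymal cells, yet the invariant chain Cd74 ranged only from 18.3 to 50.5 CPM (median 19.5) and H2-Ab1 from 7.22 to 23.9 CPM (median 10.1) in hematopoietic cells. MHC class I genes differed by less, with 10 of 12 lower, 2 past 2-fold and B2m at -1.17. The H2 genes share sequence, and their single values carry that doubt.

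Lysosome genes were hematopoietic in 23 of 25 (18 past 2-fold, median -2.09). The cathepsins Ctss and Ctsb averaged 1622 and 4222 CPM in hematopoietic cells against 6.86 and 231. The exceptions were the membrane proteins Cd63 (0.70) and Laptm4a (0.30). Handling of lipid and iron was hematopoietic as well. Of 15 lipid uptake and export genes 14 were lower in mesenchymal cells, with Apoe at 603 against 4.62 CPM, Abca1 at -4.15 and the lysosomal lipase Lipa at -4.18. The iron exporter Slc40a1 was at -6.58, the lysosomal metal transporter Slc11a1 at -7.80, and ferritin heavy chain Fth1 at -3.24. On the mesenchymal side were ceruloplasmin (Cp, 1.79) and Bmp6 (3.86), a ligand known for iron sensing. Synthesis of cholesterol, by contrast, differed little: 11 of 22 genes were not called and none differed past 2-fold.

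Complement was divided by protein. The C1q chains C1qa, C1qb and C1qc averaged 382, 707 and 478 CPM in hematopoietic cells against 1.61, 2.36 and 1.42. The proteases that complete the C1 complex were on the other side, C1s1 at 3.17 and C1ra at 1.48, together with their inhibitor Serping1 at 3.49. C3 and its receptor C3ar1 were hematopoietic (-5.19 and -8.69).

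**Figure D3:**
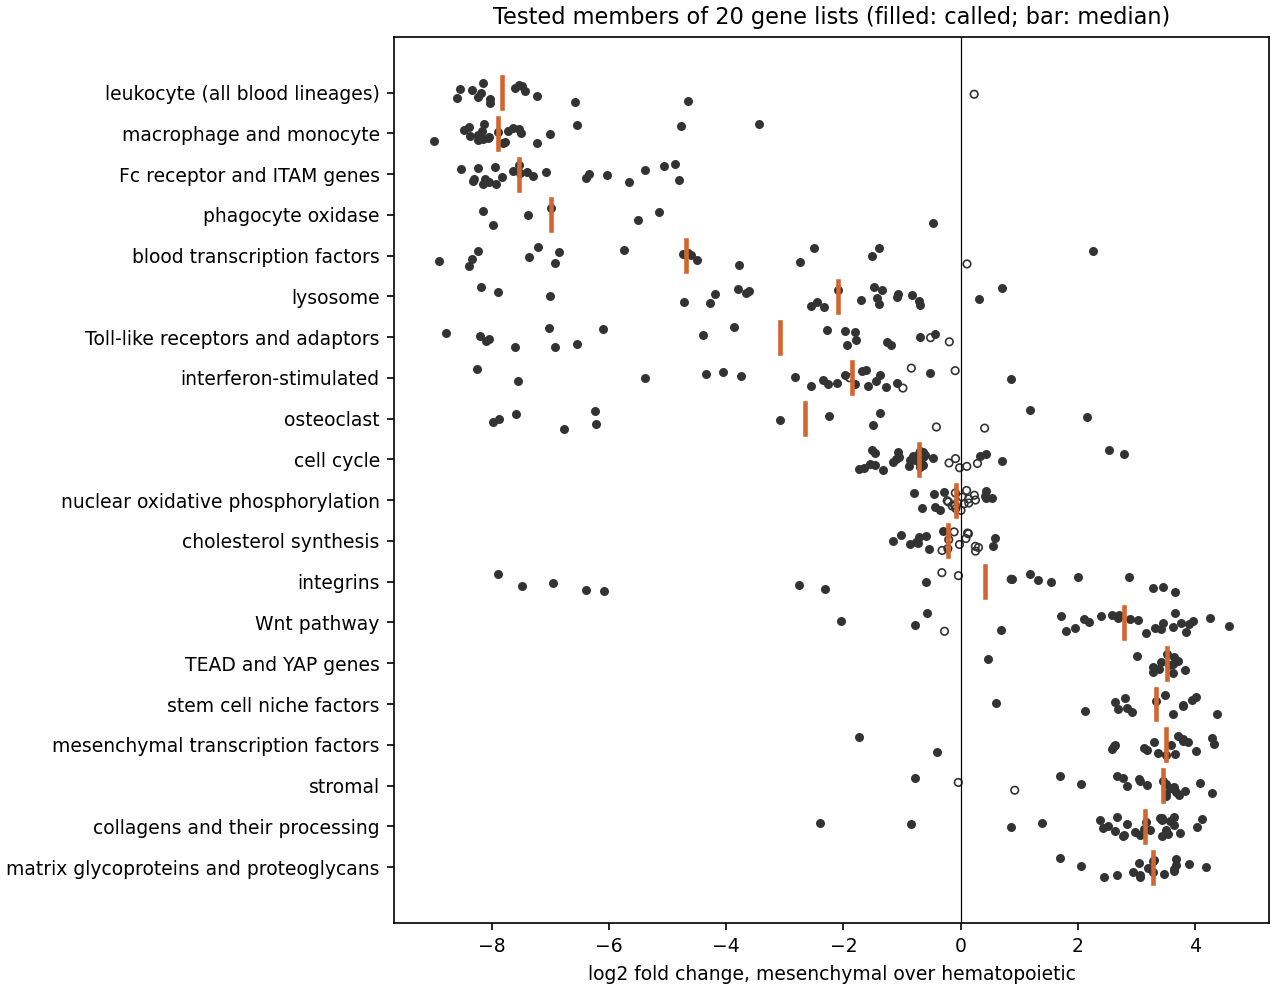
Log2 fold change (mesenchymal over hematopoietic) of every tested member of 20 gene lists, 1 point a gene, filled where called at an adjusted p under 0.05, with a bar at each list's median. The medians of the leukocyte, macrophage and Fc receptor lists lie at -7.82, -7.89 and -7.53, those of the stromal and matrix glycoprotein lists at 3.45 and 3.28, and those of oxidative phosphorylation and cholesterol synthesis at -0.08 and -0.21.

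Secreted signals were made on both sides. Of 16 tested chemokines 11 were lower in mesenchymal cells: Pf4 at -7.73, Cxcl16 at -4.92 and Ccl2, which draws monocytes, at 58.1 against 2.97 CPM. Cxcl12, Cx3cl1 and the neutrophil-drawing Cxcl1 and Cxcl5 were higher in mesenchymal cells, with Cx3cl1 at 3.75. Among cytokines, Tnf averaged 22.4 CPM in hematopoietic cells and 0.0365 in mesenchymal ones, and Il15 was at -4.44. Il1rn, which encodes the antagonist that blocks the interleukin 1 receptor (chr2:24336853-24351494), was the other way round. It ranged from 18.9 to 35.9 CPM (median 26.9) in hematopoietic and from 326 to 683 CPM (median 491) in mesenchymal libraries (4.29, SE 0.20, adjusted p = 6.62e-10). The receptor Il1r1 was mesenchymal too (4.20 against 56.8 CPM), while Il1b averaged 4.39 and 0.0247 CPM. Igf1, insulin-like growth factor 1, was hematopoietic by a wide margin, 842 to 1252 (median 948) against 3.39 to 13 (median 9.30) CPM (-6.83). Most other peptide growth factors were mesenchymal, 15 of 21, among them Fgf7 (3.69).

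Genes of eicosanoid lipids were divided by step. Alox5ap, which activates leukotriene synthesis, the thromboxane synthase Tbxas1 and the prostaglandin D synthase Hpgds were hematopoietic (-7.83, -7.27 and -7.91), as was the constitutive cyclooxygenase Ptgs1 (-2.86). The inducible cyclooxygenase Ptgs2 (13.3 against 86 CPM, 2.64) and prostacyclin synthase Ptgis (2.02) were mesenchymal. Receptors split as well, with Ptger2 and Ptger4 hematopoietic (-4.36 and -2.45) and Ptgfr mesenchymal.

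Interferon-stimulated genes were higher in hematopoietic cells for 21 of 26, with Oas2 at -7.55 and Mx1 at -5.38. The exceptions varied widely between libraries of a group. Ifi44 ranged from 3.09 to 109 CPM (median 46.2) in hematopoietic libraries, lowest in libraries 1 and 6, and from 3.87 to 27.2 CPM (median 15.6) in mesenchymal ones. Ifitm3, a membrane restriction factor, was higher in mesenchymal cells (0.86).

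Ligands and receptors were set side by side for 61 pairs. In 15 pairs the ligand was higher in mesenchymal and the receptor in hematopoietic cells, in 7 it was the reverse, in 13 both were higher in mesenchymal and in 13 both in hematopoietic cells. The other 13 had a member that was not tested or not called. Among all tested genes 36% were higher and 37.1% lower in mesenchymal cells, so each of these patterns would be frequent among unrelated genes too. Pairs are also not independent, since genes such as Csf1r, Thbs1 and Jag1 recur, and the counts are a description. The 2 osteoclast-forming pairs were of the first kind. Csf1 ranged from 25.7 to 59.9 CPM (median 46.9) in hematopoietic and from 493 to 692 CPM (median 558) in mesenchymal libraries (3.78) against its receptor Csf1r above. Tnfsf11 (RANKL) averaged 0.845 and 10.2 CPM (3.62) and its receptor Tnfrsf11a (RANK) 426 and 1.73 (-7.97). Also of that kind were Cxcl12 with Cxcr4 (-6.37), Cx3cl1 with Cx3cr1 (-7.49), Cd200 (2.63) with its inhibitory receptor Cd200r1 (-5.63), and Thbs1 with Cd36.

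In the reverse direction, Igf1 faced Igf1r (1.84), Pdgfb (-4.28) faced Pdgfrb (3.83) and Sema4d (-6.35) faced Plxnb1 (3.50). Osm, oncostatin M, averaged 7.01 CPM in hematopoietic cells and was at 0 in all 6 mesenchymal libraries, at least 195-fold lower on the same floor of 3 counts. Its receptor chain Osmr ranged from 12.9 to 41 CPM (median 23.7) and from 255 to 309 CPM (median 284) (3.52). The ligands Il6 and Csf3 were too low to test in these cultures. Csf2 is listed at 0 in all 12 libraries, from which no absence is read. The receptors Il6ra, Csf3r and Csf2ra were hematopoietic (-5.33, -7.41 and -3.75). The pair Icam1 and Itgb2 and the pair Vcam1 and Itga4 were hematopoietic in both members: Icam1 averaged 71.2 against 1.72 CPM.

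**Figure D4:**
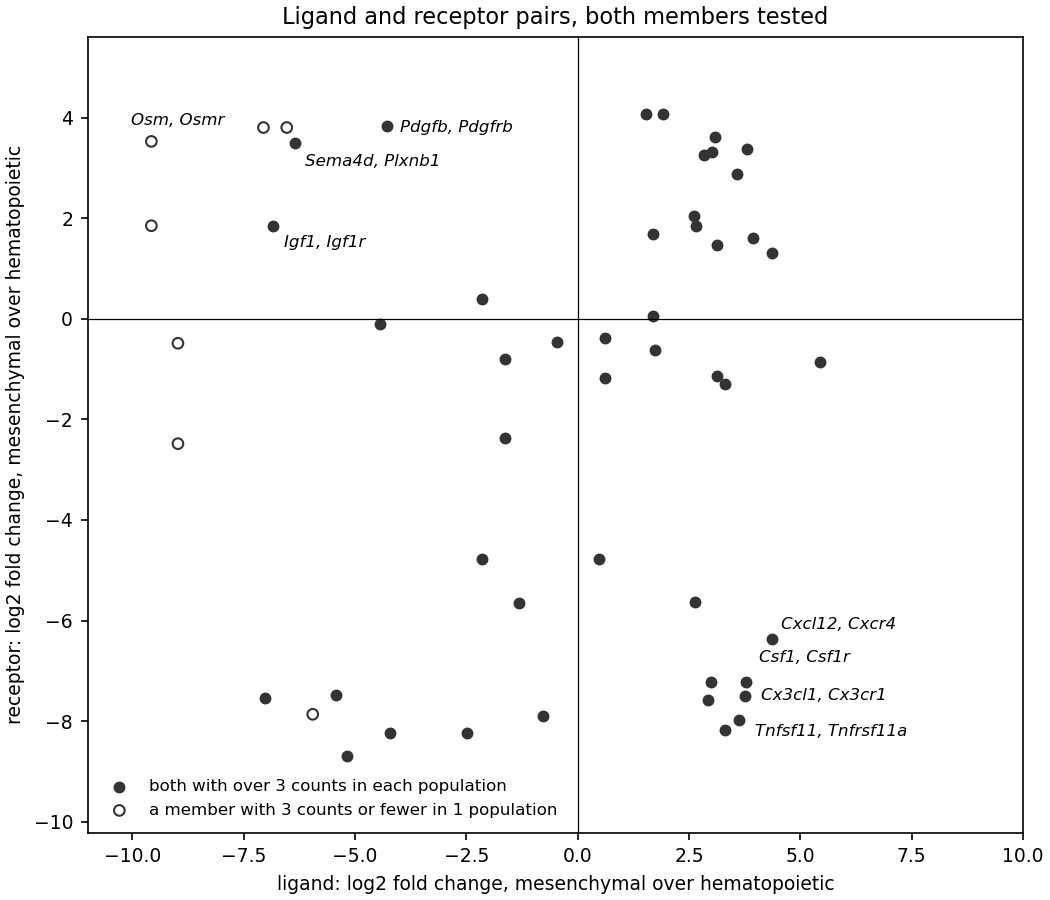
Log2 fold change of the receptor (vertical) against that of the ligand (horizontal) for the pairs with both members tested, mesenchymal over hematopoietic. Csf1, Cxcl12, Cx3cl1 and Tnfsf11 with their receptors lie at the lower right, and Osm, Pdgfb, Sema4d and Igf1 with theirs at the upper left. Of the 52 pairs drawn, 7 are open circles: a member had 3 counts or fewer in 1 population, so its position rests on a fitted value and is no bound.

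Many cytoskeletal and signalling genes come as a blood-specific member with a broadly expressed relative. In 30 such pairs, all 30 blood members were lower in mesenchymal cells, 29 past 2-fold, with a median of -7.36. The pairs were picked for known blood expression, so that count is a description. Of the relatives, 16 were higher and 11 lower, 2 were not called and 1 was not tested. Whether the relative stood higher therefore differed by family. Kindlins were reciprocal, Fermt3 at -6.95 and Fermt2 at 3.58, and so were the WAVE complex genes Nckap1l (-7.74) and Nckap1 (3.37), Hcls1 (-6.80) and cortactin Cttn (3.15), and the plastins Lcp1 (-7.61) and Pls3 (2.53). Lcp1 took 92.5% of the summed Lcp1 and Pls3 level per kilobase in the median hematopoietic library and 0.912% in the median mesenchymal one. In other families the relative stayed near level: Rac1 beside Rac2 (-0.48 and -8.15), Dock1 beside Dock2 (-0.18 and -7.95), and Coro1c beside Coro1a (-0.34 and -7.53). Sash1 was lower together with Sash3 (-3.31 and -7.94).

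Integrins, the receptors for matrix and for other cells, were divided, with 9 of 20 tested higher and 8 lower in mesenchymal cells. The collagen and fibronectin receptors Itga11 (3.28), Itga1 (3.65) and Itga5 (1.54) were mesenchymal, and Itga4, Itga6 and Itgal hematopoietic (-7.90, -6.39 and -6.96). Itgav, the shared vitronectin receptor chain, averaged 627 and 609.9 CPM, with a 95% interval of -0.26 to 0.18.

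Osteoclast genes were mostly hematopoietic and varied widely between libraries of that group. Of 14 tested 10 were lower in mesenchymal cells. Ctsk, the collagen-cutting protease of osteoclasts, ranged from 9.96 to 864 CPM (median 248) in hematopoietic and from 40.9 to 75.5 CPM (median 68.7) in mesenchymal libraries (-2.25, adjusted p = 0.0242). The call was lost without single libraries: without hematopoietic library 5 the log2 fold change was -1.38 (adjusted p = 0.150), and without library 3 the adjusted p was 0.0537. It was also lost in the C1 and the C2 libraries alone (adjusted p = 0.0673 and 0.131). The ranges overlapped, because hematopoietic libraries 1 and 6 held 16.1 and 9.96 CPM and the other 4 held 152 or more. Acp5, the acid phosphatase TRAP, ranged from 9.96 to 304 CPM (median 102) and Mmp9 from 16.1 to 369 CPM (median 80.3), and in both cases libraries 1 and 6 were again the lowest and library 5 the highest. Tnfrsf11a, the RANK gene, was steadier at 304 to 555 (median 413) CPM. Nfatc1, the master factor of osteoclasts, was not called (249 and 189.7 CPM), and Src and Itgb3, both needed for resorption, were higher in mesenchymal cells (2.16 and 1.18). Itgb3 was not called in the C1 or the C2 libraries alone (adjusted p = 0.106 and 0.058).

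The second principal component, 3.76% of the variance, set these same hematopoietic libraries 1 and 6 apart, together with mesenchymal libraries 1 and 2. Hematopoietic 1 and mesenchymal 1 and 2 carry the prefix C1 and hematopoietic 6 the prefix C2, so the prefix does not mark them. In mesenchymal libraries 1 and 2 Ibsp was 249.9 and 74.2 CPM against 649.8 or more in the other 4, and Rspo2 was higher, as above. The estimated stromal RNA shares of hematopoietic libraries 1 and 6 were 9.08% and 6.25% and that of library 5 was 7.04%, and the part of stromal RNA was not tested. Without these 4 libraries, a choice made after seeing the data, 5044 genes were higher and 5038 lower in mesenchymal cells. Vcam1, Tcf4 and Itgb3 were then no longer called (adjusted p = 0.0671, 0.152 and 0.0845), and Ibsp was (2.08, adjusted p = 2.5e-05).

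**Figure D5:**
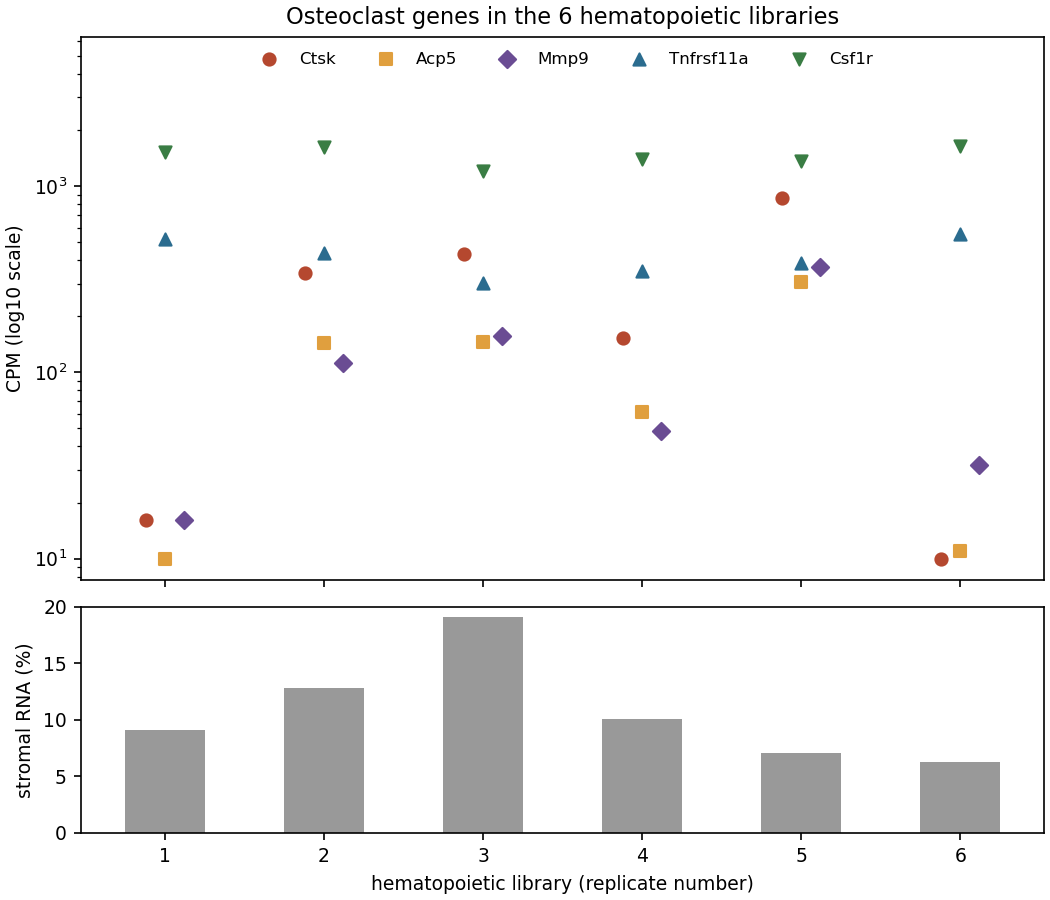
CPM (log10 axis) of Ctsk, Acp5, Mmp9, Tnfrsf11a and Csf1r in the 6 hematopoietic libraries by replicate number, with the estimated share of stromal RNA in percent in the lower panel. Ctsk, Acp5 and Mmp9 are lowest in libraries 1 and 6, Tnfrsf11a and Csf1r are nearly level, and the stromal share is highest in library 3.

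Growth and metabolism separated the populations less. Replication genes were higher in hematopoietic cells: 24 of 34 cell cycle genes were lower in mesenchymal cells, 7 past 2-fold, with Mcm3 at -1.52, Pcna at -1.66 and Mki67 at 856 against 340.3 CPM. Cdk6, the cyclin D partner, was at -1.74, whereas Cdk4 was the other way (0.71), as were cyclin Ccnd2 (2.52) and Cdkn2a, the inhibitor locus that rises in cultured cells (4.82 against 32.9 CPM, 2.78). Glycolysis genes leaned to mesenchymal cells in 12 of 22, mostly under 2-fold, with Ldha at 1.13, while hexokinase Hk3 was hematopoietic (-7.29). Of 25 nuclear genes of oxidative phosphorylation 15 were not called and none differed past 2-fold, with a median of -0.08.

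Of 17 genes often taken as references, 6 were higher and 6 lower in mesenchymal cells, a share near the 73.1% called among all tested genes. Gusb, a lysosomal enzyme, was at -2.56, Tfrc at -1.38, Hprt at -1.19 and Rpl13a at 1.35. Near level were Polr2a (-0.04, 95% interval -0.22 to 0.14) and Tbp (-0.06, -0.29 to 0.17). Of 1438 genes at 100 CPM or more in both populations, 200 lay within 0.1 of 0 on the log2 scale. Those with the narrowest intervals included Fem1b (-0.07 to 0.15), Tardbp (-0.05 to 0.18), Arnt (-0.08 to 0.15), Psmd14 (-0.10 to 0.14) and Cdc27 (-0.12 to 0.13).

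MicroRNAs were not measured, and only the longer transcripts that hold their hairpins were. Of 1005 hairpins in RefSeq, 542 lay inside a tested gene on its strand, in 477 host genes, of which 78 were higher and 83 lower in mesenchymal cells past 2-fold. Among all tested genes 16.4% were higher and 15.6% lower past 2-fold, so the hosts as a whole are near the background. Among 30 noncoding hosts 9 were higher and 7 lower past 2-fold. The ones described here were chosen after their values were seen. Mir142hg, host of the blood cell microRNA miR-142 (chr11:87755577-87757270), ranged from 8.82 to 11.5 CPM (median 10.5) in hematopoietic libraries and had 3 counts in all over the 6 mesenchymal ones. F630028O10Rik, host of the myeloid miR-223 (chrX:96239926-96243636), ranged from 89.8 to 180.2 CPM (median 134) and from 0.157 to 1.28 CPM (median 0.437) (-7.82). Dnm3os, host of miR-199a and miR-214 (chr1:162217623-162225550), was mesenchymal, 6.79 to 16.6 (median 10.2) against 87.4 to 146 (median 116) CPM (3.49). Dnm3os and F630028O10Rik are annotated as antisense genes and the counting may not have used strand, so part of their counts may belong to the opposite strand. Mature sequences from RefSeq, build GRCm38.p6, are printed with the seed, bases 2 to 8, in capitals, to show the products of these hosts.
miR-142a-3p: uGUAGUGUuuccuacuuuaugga
miR-223-3p: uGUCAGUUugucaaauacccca
miR-199a-3p: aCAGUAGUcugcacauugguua
miR-214-3p: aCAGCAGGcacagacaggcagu

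Hosts of 2 related microRNA clusters lay on opposite sides. Mir99ahg (chr16:77236317-77773427), which holds miR-99a and let-7c-1, was at 563 to 1272 (median 859) CPM in hematopoietic and 75.9 to 147 (median 89.9) in mesenchymal libraries (-3.16, SE 0.21, adjusted p = 2.31e-08). The transcript 3110039I08Rik (chr9:41327077-41716994), which holds miR-100, let-7a-2 and miR-125b-1, was at 10.3 to 37.9 (median 23.7) and 188 to 443 (median 217) CPM (3.61, SE 0.21, adjusted p = 5.12e-09). Neither pair of ranges overlapped. Mature miR-99a and miR-100 share the seed ACCCGUA, as the lines below show, and the last line is a product of the miR-125b-1 hairpin. Only hairpins in the RefSeq set used were placed, so either host may hold more. The same mature sequence may also come from another locus, and miR-125b is not read as particular to the mesenchymal host.
miR-99a-5p: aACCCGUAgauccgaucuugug
miR-100-5p: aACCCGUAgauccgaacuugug
miR-125b-5p: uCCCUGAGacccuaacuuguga

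The population difference was also tested between the prefixes and between the genotypes. Of 15526 genes 0 (0%) had an interaction of population with prefix at an adjusted p under 0.05 by edgeR, 1644 at an unadjusted p under 0.05, and DESeq2 called 205. Between genotypes, with all 24 libraries, 1121 of 15389 genes (7.28%) had a population difference that differed between wild type and knock-in. Named above and among those most clearly changed was Src, whose interaction was -2.36 (SE 0.30, adjusted p = 4.45e-05), the knock-in difference minus the wild type one.

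Some list members are listed at 0 in all 12 libraries, 28 of 941, among them Itgam, Irf8, Myd88, Igf2 and Cox4i1. Since Cox4i1 encodes a respiratory chain subunit that nearly all cells use, those zeros are given as listed and no absence is read from them.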

How the data were processed

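RNA-seq counts of the 12 wild type libraries were compared, with the 12 knock-in libraries added for the test of genotype. The deposited files hold raw counts per Ensembl gene. RNA was extracted with Direct-zol, depleted of ribosomal RNA with RiboGone and made into stranded paired-end libraries, per the labels' protocols. Per the submitters' processing notes, the authors used HTSeq 0.9.1, DESeq2 1.20.0, FastQC 0.11.7 and MultiQC, with build GRCm38 (mm10). Neither an aligner nor whether the counting used strand is stated: not given in the sources used here. Reads from a gene and from an overlapping gene on the other strand may therefore be mixed.

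The fit was edgeR 4.0.16's robust quasi-likelihood model in R 4.3.3, on genes that filterByExpr passed at a count of 10 and a total of 15, with TMM factors and the C1 or C2 prefix of the deposited file names as a term. No label says what the prefix is. The threshold was a Benjamini-Hochberg adjusted p of 0.05, and glmTreat tested against a log2 fold change of 1. The standard error is the size of the log2 fold change over the square root of F. CPM is count over library total and TMM factor. DESeq2 1.42.0, another scaling, no filter, no prefix term, each prefix alone, replicate blocks, all 24 libraries and each library left out were alternatives. The fitting was tested on simulated data in which far fewer genes changed than here, and by less, so that check does not cover differences this broad. Gene types, positions and exon lengths came from GENCODE vM21 (GRCm38).

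The population pair, gene lists and gene pairs were chosen with earlier results of these data known. By the rule for named genes, the text could name Ptprc, Ly6a, Csf1r, Pdgfra, Prrx1, Spi1, members of the pairs described, the 12 largest rises and falls past 2-fold at 10 CPM or more, the 10 most abundant genes per kilobase, up to 5 called members of each list and the exceptions to its direction, genes nearest to level, genes with an outlying library and up to 6 genes of each interaction. It names part of these. Of 248 genes with values, 220 come from the rule and 28 were named after their values were seen, the microRNA hosts among them.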

Additional observations from a re-analysis of the deposited data

Results flagged for a closer look

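In 84 sets of 6 wild type libraries (40 genes in each population, the RNA shares and the total counts), 5 had a library that stood apart by Dixon's criterion at the 95% level, and chance flags about 1 in 20 such sets. In hematopoietic libraries these were the lowest Lsp1 level (14.9 CPM, library 6), the highest Ly6a level (32.2 CPM, library 2), and the highest Prrx1 and Yap1 levels (95.5 and 31.0 CPM, both in library 3, which also had the highest estimated share of stromal RNA). In mesenchymal libraries it was the highest Yap1 level (209 CPM, library 2).

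The population difference of 16 of the 243 named genes tested differed between the knock-in and wild type cultures, at an adjusted p under 0.05 in edgeR's interaction test over all 24 libraries. Among all tested genes the share was 7.28%, so the named genes are near the background. Values are the knock-in log2 difference minus the wild type one. The kinase Src was at -2.36, the integrin chains Itgb3 and Itgav at -2.27 and -0.67 and the factor Nfatc1 at -1.34. The interleukin 1 antagonist Il1rn and the surface protein Cd200 stood at -2.01 and -2.95. Cav2, a caveolin, was at -1.77, the plastin Pls3 at -1.08, the transferrin receptor Tfrc at -0.80, the lysosomal membrane protein Cd63 at -0.60 and the receptor Tgfbr1 at -0.49. Positive values were those of Lsp1 (1.24), the prostaglandin receptor Ptger4 (1.09), the protease Ctsb (0.82), the factor Tcf4 (0.70) and the purine enzyme Hprt (0.53).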

How the results depend on the processing

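Calls of the wild type difference stayed within 1.5 times of 10448 genes under every alternative run, from 8478 with C1 libraries alone (4192 higher, 4286 lower) to 12420 with DESeq2. C2 libraries alone gave 9361 (4639 and 4722). Calls past 2-fold ran from 4007 (C1 alone) to 5799 (no filter) around 4575. With 1 library left out, the counts were 10256 to 10515 and 4558 to 4781, called list members 623 to 640 and called named genes 218 to 224. Of 2392 counts of a list's members called in 1 direction under an alternative, 77 moved by more than 1.5 times, each from a count of 9 or fewer. Endothelial genes higher in mesenchymal cells went from 7 to 1 and cholesterol synthesis genes lower there from 9 to 4 with C2 libraries alone, and cartilage genes higher there from 8 to 5 with C1 libraries alone. The genotype interaction count was 948 to 1166. The prefix interaction, 0 genes by edgeR, was 205 with DESeq2, 33 without a filter and 0 to 15 with 1 library left out, 15 without mesenchymal library 3. The cause was not tested. The mean over markers gave a stromal share of 24.9% and a leukocyte share of 7.94%, since Lsp1, Eng and Vcam1 were not lower in the population they do not mark.

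Same-numbered libraries did not clearly pair by title: deviations from the mean of a population and prefix correlated at -0.11 to 0.29. The own number was nearest for 2 of 6 numbers, among libraries of the same prefix. For the number in file names, deviations were taken from the population mean alone, so differences between prefixes stayed in them. Number 5 joined libraries of different prefixes. These correlations were all positive, at 0.093 to 0.41, and cannot be compared with those by title. The own number was then nearest for 2 of 4 numbers, among all 6 mesenchymal libraries. With so few numbers, this check cannot settle if same-numbered libraries share a culture. The replicate block by title gave 10195 calls (4520 past 2-fold), and the replicate block by file-name number, over 8 libraries, 9516 (4465). Under these blocks Ctsk was at -1.22 and -1.26 (adjusted p = 0.298 and 0.117) and Cd34 at -1.56 and -1.23 (adjusted p = 0.064 and 0.0519), neither called.

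No value of the 242 named genes tested changed direction while called. Calls were gained or lost for 7 of them with a library left out and for 18 under the other settings. With C1 libraries alone Cd34, Ptgs2, Sox9, Ifitm3 and Laptm4a were not called, and with C2 libraries alone Cdh5, Tcf4 and Vcam1 were not. Cd34, Cdh5, Itgb3 and Ctsk were not called without a filter, and Coro1c, Itgb3 and Ctsk in neither prefix alone. Among calls gained, Acan was called with C2 libraries alone (3.21, adjusted p = 0.0101). Nfatc1 (-0.81, adjusted p = 0.00445), Ifi44 and Tlr5 were called with C1 libraries alone. Each of these genes was also called with some single library left out.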
